A study of Mus musculus with 217 samples.

Results

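The ribosome-bound RNA of heart endothelial cells (ECs) 72 hr after lipopolysaccharide (LPS) was compared with that of heart ECs at 0 hr, to find which genes were still changed 3 days into the response. A library is the sum of all sequencing runs with the same tissue, time and replicate number, and libraries with under 3% of reads on genes were left out. This gave 4 heart libraries at 72 hr (replicates 1, 2, 3 and 5) and 5 at 0 hr (replicates 1 to 5), of 98 libraries in the whole series, 18 of which were left out. The lowest share of reads on genes in the kept libraries of this comparison was 60.5%, and the left-out replicate 6 at 0 hr and replicate 4 at 72 hr held 2.28% and 2.41%. All mice were adult Cdh5CreERT2/+; Rpl22HA/+ mice on a C57BL/6J background that received 5 mg tamoxifen by gavage 4 times from 4 to 6 weeks of age. In these mice Cre, driven by the VE-cadherin (Cdh5) gene, switches on an HA tag on the ribosomal protein Rpl22 in ECs, and ribosomes were pulled from whole heart with an antibody against the tag. The 72 hr mice had received 10 mg/kg LPS intraperitoneally, and the 0 hr mice were the controls, which carry the same alleles and tamoxifen. The study's methods name mice injected with PBS as the controls of the LPS mice. The labels name replicates as separate samples and do not tie them to mice or cultures, so p-values measure the spread between these libraries.

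LPS is a cell wall component of gram-negative bacteria that ECs sense through the receptor TLR4. The best known EC response runs through NF-kappaB and AP-1 to selectins, adhesion molecules and chemokines that bring neutrophils and then monocytes to the vessel wall. Acute phase proteins are secreted into plasma or tissue during inflammation, mostly by the liver, and some are also made locally.

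The 9 libraries held 8888441 to 32551709 gene counts, with 18240 to 20611 genes detected in each. The targeted ribosomal gene Rpl22 and the EC genes Cdh5 and Pecam1 were detected in every library, at 74.6 to 111 CPM (counts scaled to equal library totals, 1000000 each), 1360.0 to 1921 CPM and 1859 to 3303 CPM, and did not pass the test between 72 and 0 hr. Replicate 1 at 72 hr stood apart from the other libraries of its time. Over the 493 genes that were higher at 48 hr than at 0 hr, its median log2 difference from the 0 hr mean was 0.19, against 1.48, 1.41 and 1.49 in replicates 2, 3 and 5. Replicate 5 at 6 hr, which enters the fit but not the comparison, stood apart in the same way, at 0.09 against 1.82 to 2.14 in the other 6 hr libraries. The labels of both libraries were kept, and results are given with and without them, as alternatives added after the data were seen. Reads of the Y-linked genes Ddx3y, Uty, Kdm5d and Eif2s3y also moved with the groups. They summed to 150.4 to 242 CPM in replicates 1 to 4 at 0 hr and to 0 in replicate 5, and to at most 0.117 CPM in every 72 hr library. Within the 0 and 72 hr groups, their presence and the time after LPS thus cannot be told apart beyond replicate 5 at 0 hr. Xist ran the other way, with 0 counts in replicates 1 to 4 and 1053 in replicate 5 at 0 hr. At 72 hr it had 404, 457, 115 and 372 counts. The sex of the mice is not in the labels, and a difference in sex between these groups cannot be told apart from time in the same way. Of the other heart libraries in the fit, Y-linked reads reached 10 CPM in 2 of 5 at 6 hr and 2 of 4 at 24 hr. They did so in 6 of 6 at 48 hr and in 0 of 4 at 168 hr. Sex itself was not tested.

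**Figure D1:**
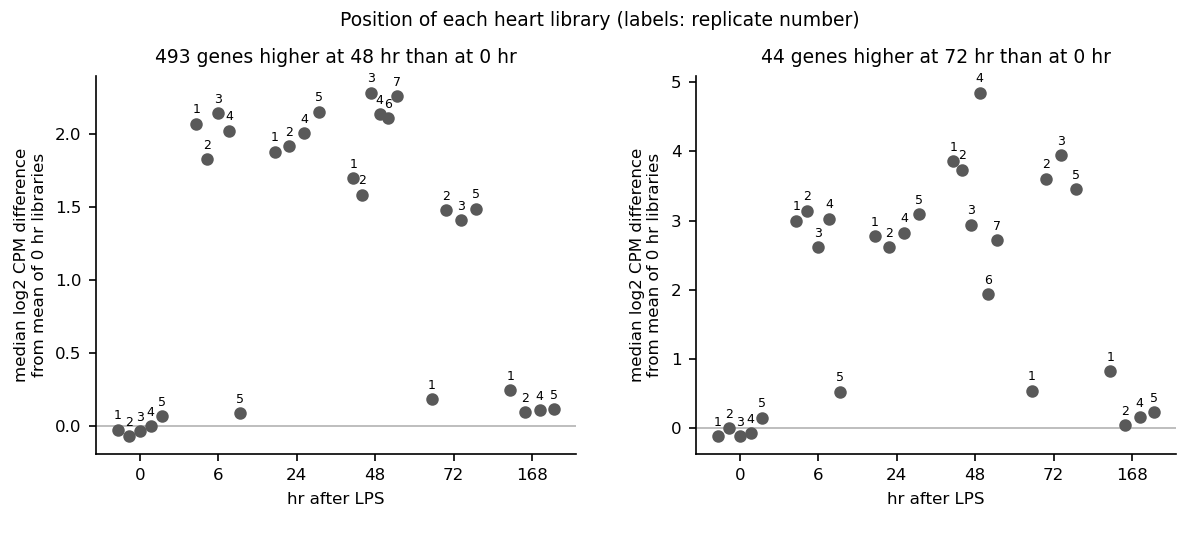
Median log2 CPM difference of each heart library (points, labeled by replicate number) from the mean of the 0 hr libraries, over the 493 genes higher at 48 hr (left) and the 44 genes higher at 72 hr (right), by hr after LPS. Replicate 1 at 72 hr and replicate 5 at 6 hr lie near the 0 hr libraries in both panels, and the right panel shows genes chosen on the 72 hr libraries themselves.

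At 72 hr, 44 genes were higher than at 0 hr and 0 were lower. They encode acute phase proteins led by Saa3 and Lcn2, endothelial selectins and the chemokine receptor Ackr1, monocyte chemokines, receptors of phagocytes, and a few enzymes and cardiac genes. The 44 are 0.275% of the 16024 genes tested (edgeR quasi-likelihood test, Benjamini-Hochberg adjusted p under 0.05). At an unadjusted p under 0.05, 692 genes were higher (4.32%) and 251 lower (1.57%). DESeq2 called 166 higher genes, all 44 among them, and 11 lower. limma-voom, the test of the study's methods, called 0 higher and 0 lower, so that with it none of the 44 passed. All 44 had positive log2 fold changes with it, with a median of 3.26. This sign was favored in advance, as the 44 were chosen on the same libraries. The edgeR fit called 3597 higher and 3257 lower genes at 6 hr (22.4% and 20.3%). It called 1454 and 1140 at 24 hr (9.07% and 7.11%), and 493 and 178 at 48 hr (3.08% and 1.11%). The count was 0 in both directions at 168 hr, where 502 were higher (3.13%) and 178 lower (1.11%) at an unadjusted p under 0.05. All of these comparisons share the 0 hr libraries.

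The log2 fold changes of the 44 genes ran from 0.92 to 8.15, with a median of 4.10, beside a median of 0.00 over all genes tested. Their edgeR adjusted p ran from 0.0105 to 0.0477, and the 3 genes just outside the threshold, Serpina3g, Myo10 and Serpina3i, had 0.0511, 0.0511 and 0.0575. Replicate 1 was the lowest of the 72 hr libraries for 42 of the 44 and lay within or below the 0 hr range for 23. All 4 libraries at 72 hr lay above all 5 at 0 hr for 21 of the 44, against 2.08% of all genes, and replicates 2, 3 and 5 did so for all 44, against 8.79% of all genes. Since these 44 were chosen on the same values, these shares describe them and test nothing. Many were low genes, as 29 had a median under 1 CPM at 0 hr and only 9 reached 3 as mean log2 CPM.

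The number of genes called depended on which libraries entered the fit. Without replicate 1 at 72 hr, 201 genes were higher (1.24%) and 47 lower (0.289%). Without replicate 5 at 6 hr, 173 were higher (1.08%) and 10 lower (0.0625%), with the libraries of the comparison itself unchanged. Of these 10, 3 were the Y-linked Ddx3y, Uty and Kdm5d, with log2 fold changes of -11.36, -10.94 and -10.48, which follow the difference in Y-linked reads between the groups. These overlapping fits shared 138 genes, of their 248 and 183 calls. Without both libraries 368 were higher (2.27%) and 104 lower (0.64%). Leaving out any other library of the comparison took the number of higher genes to between 0 and 10, with 0 without replicate 1 or 4 at 0 hr or replicate 2 at 72 hr. With a term for Y-linked reads 0 genes passed, and the 44 kept positive log2 fold changes with a median of 4.21. Within library series 1, the series read from the names of the deposited counts, replicate 3 at 72 hr lay above the 0 hr mean for 44 of the 44 genes, with a median log2 difference of 3.83. Within library series 2 the median log2 difference was 3.55 for replicate 2 and 0.50 for replicate 1 of 72 hr, and replicate 5 has no 0 hr library in its series. Over all genes these medians were 0.00 for replicate 3, -0.001 for replicate 2 and 0.02 for replicate 1. As the 44 were chosen with these libraries in the fit, their values within a series describe them and test nothing. The same holds for their positive signs with the Y-linked term.

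**Figure D2:**
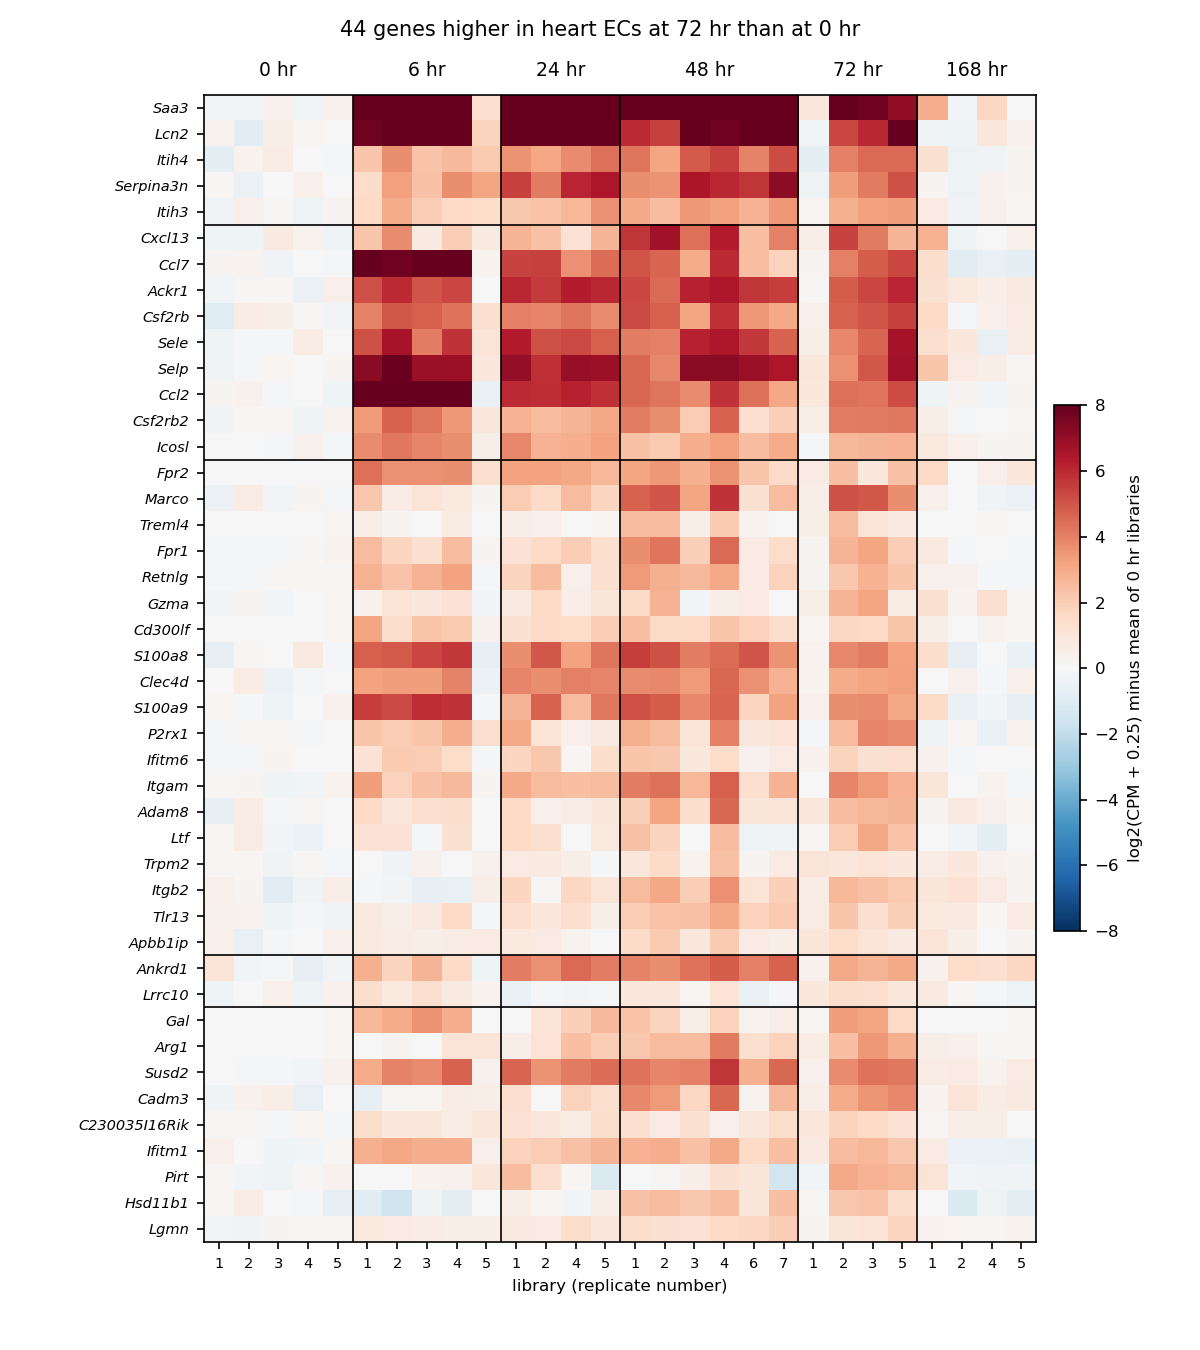
Log2(CPM + 0.25) of the 44 genes (rows, grouped from top to bottom into acute phase, adhesion with chemokine and cytokine signaling, myeloid and lymphoid, cardiac, and other genes) in each of the 28 heart libraries (columns, by hr after LPS and replicate number), minus the mean of the 0 hr libraries. Replicates 2, 3 and 5 at 72 hr are raised in all rows, whereas replicate 1 at 72 hr, replicate 5 at 6 hr and the 168 hr libraries are closer to 0 hr.

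The 5 acute phase genes had a median log2 fold change of 3.92, and of 4.42 without replicate 1 at 72 hr. Saa3, a serum amyloid A protein made outside the liver, had the largest log2 fold change of the 44, at 8.15 ± 1.36 (SE, edgeR adjusted p = 0.0105). It held 0.188, 0.176, 0.382, 0.174 and 0.395 CPM in replicates 1 to 5 at 0 hr, and 0.704, 134, 108 and 68.7 CPM in replicates 1, 2, 3 and 5 at 72 hr. The groups did not overlap, but replicate 1 lay close to the 0 hr libraries and far below the other 72 hr libraries. Lcn2 (chr2:32384633-32388252), which encodes lipocalin 2, a protein that withholds iron from bacteria, was the most abundant of the 5 at 72 hr. Its level was 18.4, 8.11, 21.0, 16.5 and 14.9 CPM at 0 hr and 13.2, 623, 988 and 3859 CPM at 72 hr, with a log2 fold change of 5.23 ± 1.07 (edgeR adjusted p = 0.0357). Here replicate 1 lay inside the 0 hr range, and the other 3 libraries lay far above it. The protease inhibitor gene Serpina3n rose from 5.02 to 9.25 CPM at 0 hr to 73.9, 127 and 245 CPM in replicates 2, 3 and 5, with 5.28 CPM in replicate 1. Itih4 and Itih3, neighboring genes of the inter-alpha-trypsin inhibitor heavy chain family, rose with log2 fold changes of 3.92 ± 0.68 and 2.92 ± 0.49. Itih4 held 0.470 to 1.53 CPM at 0 hr and 0.493, 19.3, 27.6 and 27.3 CPM at 72 hr, so that again only replicate 1 overlapped with 0 hr.

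The promoters of Saa3 and Itih4 are shown because these genes had the largest and the third largest log2 fold change of the acute phase genes and hold letters read by factors of the acute phase response. The sequences are 250 bases before the start of the gene, from RefSeq (GRCm38.p6), and printed 5′ to 3′ on the strand of the gene. Capitals mark matches to a motif. In Saa3 (chr7:46715701-46715926, minus strand) the 24 bases nearest the start, which an annotated exon covers, are left off, and the capitals are an interferon-stimulated response element (ISRE) match and a C/EBP match, and in Itih4 (chr14:30886226-30886475, plus strand) a STAT match.
Saa3: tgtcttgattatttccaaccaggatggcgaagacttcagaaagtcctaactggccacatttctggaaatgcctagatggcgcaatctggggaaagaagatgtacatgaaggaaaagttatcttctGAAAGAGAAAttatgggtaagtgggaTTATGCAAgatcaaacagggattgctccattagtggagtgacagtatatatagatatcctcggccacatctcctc
Itih4: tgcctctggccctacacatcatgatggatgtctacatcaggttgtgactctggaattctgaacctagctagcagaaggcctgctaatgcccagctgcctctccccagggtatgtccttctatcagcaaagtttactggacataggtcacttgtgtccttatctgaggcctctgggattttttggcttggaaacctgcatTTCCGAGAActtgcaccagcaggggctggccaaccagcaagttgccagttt

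The 9 genes of leukocyte adhesion, chemokine and cytokine signaling had a median log2 fold change of 4.80, and of 5.50 without replicate 1 at 72 hr. Sele and Selp encode E- and P-selectin, on which leukocytes roll. Sele held 0.939, 1.15, 1.11, 2.05 and 1.26 CPM at 0 hr and 1.87, 21.3, 38.2 and 149 CPM at 72 hr, with a log2 fold change of 4.80 ± 0.97 (edgeR adjusted p = 0.0342). Selp held 3.19, 3.52, 4.47, 3.93 and 4.64 CPM at 0 hr and 7.43, 52.2, 132 and 445 CPM at 72 hr, with a log2 fold change of 4.43 ± 0.97 (edgeR adjusted p = 0.0445). Selp did not overlap between the groups, whereas Sele overlapped in replicate 1, and in both genes replicate 5 was the highest library. Exons of Selp overlap a gene on the opposite strand, and it is not stated whether reads were counted by strand. Ackr1 (chr1:173331886-173333750), an atypical receptor that holds chemokines on venular ECs, had a log2 fold change of 5.20 ± 0.86 (edgeR adjusted p = 0.0105). Its level was 0.452 to 1.01 CPM at 0 hr and 0.775, 27.5, 39.1 and 65.7 CPM at 72 hr.

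Among the chemokines, Ccl2 and Ccl7, which attract monocytes, and Cxcl13, which attracts B cells, were higher at 72 hr. Ccl2 held 7.89, 8.90, 6.26, 6.61 and 5.32 CPM at 0 hr and 12.3, 154, 142 and 263 CPM at 72 hr, with a log2 fold change of 4.31 ± 0.93 and no overlap between the groups (edgeR adjusted p = 0.0405). Ccl7 held 0.535 to 0.881 CPM at 0 hr and 0.845, 15.1, 26.4 and 37.6 CPM at 72 hr. Cxcl13 was lower in level, at 0 to 0.267 CPM at 0 hr and 0.211, 13.2, 5.40 and 1.86 CPM at 72 hr. The cytokine receptor genes were Csf2rb, the beta chain shared by the receptors of GM-CSF, IL-3 and IL-5, and its close paralog Csf2rb2. Csf2rb held 0.658 to 2.47 CPM at 0 hr and 2.08, 45.8, 57.7 and 77.0 CPM at 72 hr. Csf2rb2 held 1.56 to 2.62 CPM at 0 hr and 2.92, 39.9, 41.8 and 43.5 CPM at 72 hr, and how reads shared by this pair were split is uncertain. Icosl, the ligand of the T cell receptor ICOS, changed the least of the 9, with a log2 fold change of 2.36 ± 0.51 and 13.3, 97.3, 101 and 104 CPM at 72 hr beside 13.3 to 19.1 CPM at 0 hr.

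The promoters of the selectins are shown because these genes lie side by side on chromosome 1 and rose together. Capitals mark a STAT match and an AP-1 match in Sele (chr1:164047984-164048233, plus strand) and an AP-1 match in Selp (chr1:164115014-164115263, plus strand), and neither holds the NF-kappaB letters searched.
Sele: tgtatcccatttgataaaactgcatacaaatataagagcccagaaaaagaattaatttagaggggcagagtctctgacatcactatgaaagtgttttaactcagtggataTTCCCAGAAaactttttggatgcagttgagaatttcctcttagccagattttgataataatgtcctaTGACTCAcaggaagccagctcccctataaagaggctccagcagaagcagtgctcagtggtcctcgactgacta
Selp: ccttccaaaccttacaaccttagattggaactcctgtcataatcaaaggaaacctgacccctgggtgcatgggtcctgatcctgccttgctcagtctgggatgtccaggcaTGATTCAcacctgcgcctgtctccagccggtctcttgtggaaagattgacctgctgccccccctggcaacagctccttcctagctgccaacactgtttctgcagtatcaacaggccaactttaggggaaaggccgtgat

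The largest group, 19 genes, is better known from myeloid and lymphoid cells than from ECs, and had a median log2 fold change of 4.30, and of 4.89 without replicate 1 at 72 hr. Marco, a scavenger receptor of macrophages, held 0, 0.264, 0.0382, 0.139 and 0.0719 CPM at 0 hr and 0.247, 11.4, 10.6 and 4.25 CPM at 72 hr, with a log2 fold change of 6.31 ± 1.01 (edgeR adjusted p = 0.0105). Itgam and Itgb2 encode the subunits of the integrin Mac-1, by which neutrophils and monocytes bind ICAM-1. Itgam held 0.344 to 0.647 CPM at 0 hr and 0.528, 11.1, 7.65 and 4.86 CPM at 72 hr. Itgb2 held 0.306 to 1.29 CPM at 0 hr and 1.30, 6.32, 5.00 and 4.13 CPM at 72 hr. S100a8 and S100a9, which form calprotectin, reached 3.43 to 6.63 CPM and 5.35 to 8.67 CPM in replicates 2, 3 and 5, from at most 0.417 and 0.575 CPM at 0 hr. The formyl peptide receptors Fpr1 and Fpr2, the lectin Clec4d, the receptors Treml4, Cd300lf, P2rx1 and Tlr13, and lactoferrin (Ltf) were in the same group. Gzma, a protease of cytotoxic T and NK cells, held at most 0.0881 CPM at 0 hr and 0.141, 1.65, 2.34 and 0.175 CPM at 72 hr.

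Several of these genes had almost no counts at 0 hr, which sets the size of their fold changes. Fpr2 had 0 counts over the 5 libraries at 0 hr and 70 over the 4 at 72 hr, which is at least 24.6-fold higher than a floor of 3 counts over the 0 hr group. Arg1, Gal, Cd300lf and Treml4 had 1 count each at 0 hr, and Retnlg and Fpr1 had 3. For Arg1, with 114 counts at 72 hr, the pooled ratio was 120.4 (exact 95% interval 21.2 to 4795), and for Fpr1, with 93 counts, 32.7 (10.9 to 161.6). These intervals and the floor cover counting error only, and with Fpr2 at its bound the medians of the 44 and of the 19 genes stayed at 4.10 and 4.30.

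Marker lists of some other cell types were higher at 72 hr. The counts of marker genes that passed stand beside 0.275% higher and 0% lower over all genes tested. At an unadjusted p under 0.05 these shares were 4.32% and 1.57%. The 13 neutrophil markers summed to 1.18 to 2.03 CPM at 0 hr and to 2.47 to 27.0 CPM at 72 hr, with 7 to 11 of the 13 detected, and 4 of the 9 tested were higher. The 4 were S100a8, S100a9, Retnlg and Ltf, with log2 fold changes of 4.78, 4.30, 5.42 and 3.04, and they are themselves among the 44. The other 5 tested, Mmp8, Mmp9, Ngp, Cxcr2 and Csf3r, had 6.81, 2.29, 3.93, 4.84 and 2.30 and were higher at an unadjusted p under 0.05 only. Without replicate 5 at 6 hr, 7 of the 9 passed, beside 1.08% of all genes higher in that fit. The 4 markers too low to test were Ly6g, with 4 counts over the 72 hr libraries and 0 over the 0 hr ones, Camp, with 1 and 0, Mpo, with 0 and 1, and Elane, with 0 in both. Elane and Mpo are known as transcripts of neutrophil precursors. The 16 macrophage and monocyte markers summed to 60.0 to 95.4 CPM at 0 hr and to 43.7 to 228 CPM at 72 hr, and 1 of the 16, Itgam, was higher. This list did not follow the 44 genes, as its sum was 112 CPM in replicate 1 and 43.7 CPM in replicate 5, which is below every 0 hr library. The 12 T and NK cell markers summed to 0.802 to 1.69 CPM at 0 hr and to 2.07 to 4.38 CPM at 72 hr. Only 2 of the 12 were tested, Gzma, which passed and is itself among the 44, and Lck. Gzma went from 4 to 78 counts over the groups and Lck from 63 to 133. Of the markers too low to test, Nkg7 went from 3 to 13 counts, but Cd4 from 24 to 5, and Cd8a and Trbc2 from 7 to 3. The 6 platelet markers, of interest beside Selp and P2rx1, which platelets also express, summed to 4.58 to 8.41 CPM and to 8.61 to 12.6 CPM, with no overlap, and 0 of the 3 tested passed (1 higher and 0 lower at an unadjusted p under 0.05). The 11 fibroblast markers summed to 333 to 719 CPM and to 710 to 1015 CPM, and 0 passed (1 higher and 0 lower at an unadjusted p under 0.05). The part of other cells in these results was not tested. The 28 pan-endothelial genes, at 21602 to 24657 CPM at 0 hr and 21019 to 24165 CPM at 72 hr, included 0 called genes, with 1 higher and 0 lower at an unadjusted p under 0.05. As the RNA came from whole heart, fewer cells of a type and less RNA per cell cannot be told apart.

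The Marco promoter (chr1:120505025-120505274, minus strand) is shown as that of the most changed macrophage gene, with a match to the NF-kappaB letters in capitals.
Marco: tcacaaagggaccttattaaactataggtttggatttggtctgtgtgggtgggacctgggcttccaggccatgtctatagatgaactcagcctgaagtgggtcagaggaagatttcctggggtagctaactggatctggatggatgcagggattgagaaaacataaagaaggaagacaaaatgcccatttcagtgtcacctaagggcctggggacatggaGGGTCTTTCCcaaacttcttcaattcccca

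The cardiac genes were Ankrd1, a stress-responsive ankyrin repeat protein of the sarcomere and nucleus, and Lrrc10, a leucine-rich repeat protein of heart muscle. Ankrd1 held 335, 134, 144, 99.0 and 133 CPM at 0 hr and 195, 1269, 1029 and 1251 CPM at 72 hr, with a log2 fold change of 2.38 ± 0.50 (edgeR adjusted p = 0.0404). Replicate 1 lay inside the 0 hr range of Ankrd1. Lrrc10 held 6.39, 8.11, 10.7, 6.08 and 10.6 CPM at 0 hr and 14.6, 22.2, 21.5 and 15.7 CPM at 72 hr, with a log2 fold change of 1.29 ± 0.28 and no overlap (edgeR adjusted p = 0.0424). The 18 cardiomyocyte markers summed to 5680 to 11086 CPM at 0 hr and to 5939 to 9358 CPM at 72 hr, and these ranges overlapped. Of the 18 genes 0 passed the test. At an unadjusted p under 0.05, 2 were higher and 0 lower, beside 4.32% and 1.57% of all genes.

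The remaining 9 genes had a median log2 fold change of 2.95, and of 3.30 without replicate 1 at 72 hr. Arg1, the enzyme that splits arginine, held at most 0.0359 CPM at 0 hr and 0.141, 1.14, 2.55 and 1.57 CPM at 72 hr, with a log2 fold change of 6.19 ± 1.05 (edgeR adjusted p = 0.0105). Hsd11b1, which regenerates active glucocorticoid inside cells, held 1.76 to 4.49 CPM at 0 hr and 3.10, 13.7, 14.9 and 8.06 CPM at 72 hr. Pirt, a regulator of TRP channels known from sensory neurons, held 0.917 to 1.69 CPM at 0 hr and 1.06, 11.9, 10.3 and 9.43 CPM at 72 hr. Replicate 1 fell within the 0 hr range for Hsd11b1 and Pirt. Lgmn, a lysosomal protease, had the smallest log2 fold change of the 44, 0.92 ± 0.20, with 42.2 to 59.7 CPM at 0 hr and 60.2, 100.3, 110.4 and 175 CPM at 72 hr. The neuropeptide galanin (Gal), Susd2, Cadm3, Ifitm1 and C230035I16Rik completed the group.

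**Figure D3:**
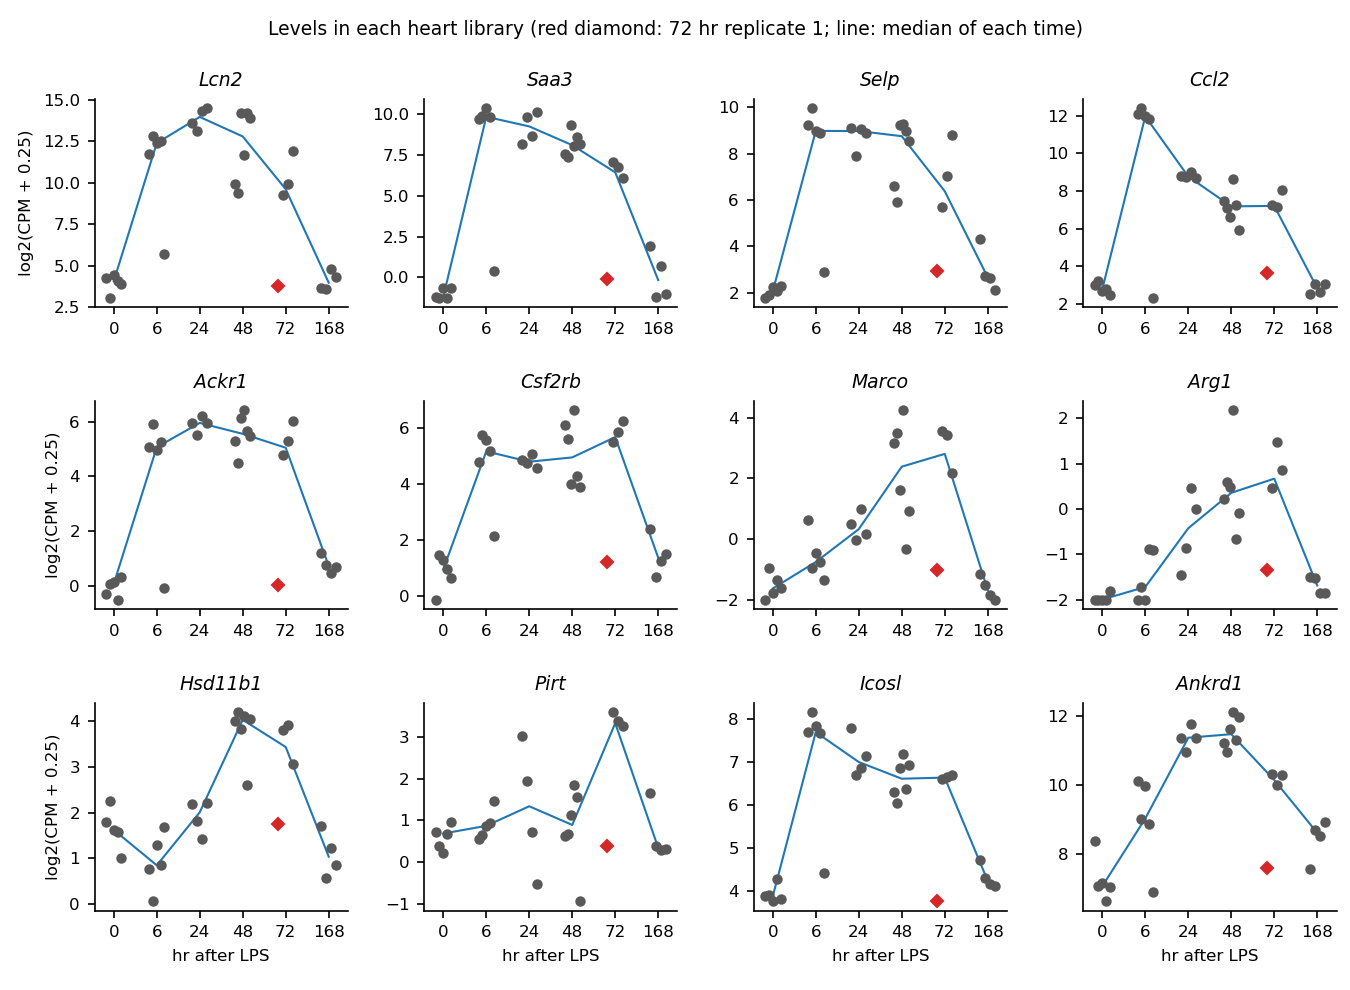
Log2(CPM + 0.25) of 12 of the 44 genes in each heart library (points) by hr after LPS, with the median of each time as a line and replicate 1 of 72 hr as a red diamond. Ccl2 peaks at 6 hr, Lcn2 at 24 hr and Hsd11b1 at 48 hr, and Pirt is highest at 72 hr.

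The 44 genes had not all followed the same course before 72 hr. Of the 44, 34 exceeded 0 hr after 6 hr and 34 after 24 hr, beside 22.4% and 9.07% of all genes. After 48 hr it was 41, beside 3.08% of all genes, and after 168 hr 0, as for all genes. Their median log2 fold change over 0 hr went from 3.25 (6 hr) through 4.12 (24 hr) to 4.53 (48 hr), and was 0.65 after 168 hr, in comparisons that share the 0 hr libraries. Against 6 hr, 11 of the 44 were higher at 72 hr and 6 lower, beside 18.8% and 20.4% of all genes. The 6 lower genes were Saa3, Lcn2, Ccl7, Icosl, Ccl2 and Selp. By group mean of log2 CPM, Ccl7, Icosl and Ccl2 were highest at 6 hr and Saa3, Lcn2 and Selp at 24 hr. Without replicate 5 at 6 hr and replicate 1 at 72 hr, Saa3 and Selp were highest at 6 hr too. Ccl2 was lower by the most, with a log2 fold change of -4.72 ± 1.07 from 6 to 72 hr, and its median fell from 4010 CPM at 6 hr to 436 at 24 hr, 145 at 48 hr and 148 CPM at 72 hr. The 11 higher genes included Marco, Arg1, Hsd11b1, Itgb2, Cadm3, Pirt and Treml4. Marco differed by 3.98 ± 0.88 and Hsd11b1 by 2.47 ± 0.40 on the log2 scale between 72 and 6 hr. The median of Hsd11b1 was 2.83 CPM at 0 hr, 1.55 at 6 hr, 3.80 at 24 hr, 16.0 at 48 hr and 10.9 CPM at 72 hr. Pirt had its highest level at 72 hr, with medians of 1.36, 1.58, 2.51 and 1.63 CPM at 0, 6, 24 and 48 hr and 9.86 CPM at 72 hr. Without replicate 5 at 6 hr, 8 of the 44 were lower and 10 higher at 72 hr than at 6 hr, beside 26.4% and 30.2% of all genes. The comparisons with 6 hr reuse the 72 hr libraries on which the 44 were chosen, so their shares are descriptive only.

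By group mean of log2 CPM, 7 of the 44 peaked at 6 hr and 8 at 24 hr, then 21 at 48 hr and 8 at 72 hr. Without replicate 5 at 6 hr and replicate 1 at 72 hr, these numbers were 14, 4, 10 and 16. Of the 9 adhesion, chemokine and cytokine genes, all were higher at 6 hr than at 0 hr, beside 22.4% of all genes. So were 5 of the 5 acute phase genes and 12 of the 19 myeloid and lymphoid genes. These counts share the 0 hr libraries on which the 44 were chosen and are descriptive only. Between 72 and 168 hr, 8 of the 44 fell and 0 rose, beside 8 lower (0.0499%) and 3 higher (0.0187%) genes in all. These 8 were Serpina3n, Itih3, Itih4, Marco, Hsd11b1, Lcn2, Ackr1 and Arg1, and their edgeR log2 fold changes ran from -6.49 for Marco to -2.37 for Hsd11b1. Lcn2 fell by 6.44 ± 1.22 on the log2 scale. The other 36 had negative log2 fold changes that did not pass. Without replicate 5 at 6 hr, 33 of the 44 were lower at 168 hr than at 72 hr, beside 1.46% of all genes. As the 44 were chosen as high in these same 72 hr libraries, a fall after 72 hr was favored in advance. These shares describe the 44 and test nothing. The 3 genes higher at 168 hr than at 72 hr were H2afx, Kif14 and Cenpf, which act in DNA repair and cell division.

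Around the 44, gene lists were described for the rest of the LPS response. Their counts stand beside 0.275% higher and 0% lower over all genes tested, 4.32% higher and 1.57% lower at an unadjusted p under 0.05, and 1.24% higher and 0.289% lower without replicate 1 at 72 hr. Of 19 acute phase and secreted inflammatory genes tested, 4 were higher at 72 hr, and 13 at an unadjusted p under 0.05, and the median log2 fold change was 1.82. Haptoglobin (Hp) had a log2 fold change of 2.94 ± 0.85, and Lrg1 of 1.82 ± 0.54, and neither passed. Of 15 leukocyte adhesion genes 3 were higher, namely Sele, Selp and Ackr1. Vcam1 and Icam1, the endothelial ligands of leukocyte integrins, did not pass (log2 fold changes of 1.65 ± 0.40 and 2.25 ± 0.57, edgeR adjusted p = 0.0816 and 0.0987). Vcam1 held 146 to 192 CPM at 0 hr and 208, 647, 621 and 517 CPM at 72 hr, and Icam1 held 96.9 to 138 CPM and 118, 644, 717 and 994 CPM. Both passed in the fit without replicate 1 at 72 hr and in that without replicate 5 at 6 hr. Of 22 chemokine genes 3 were higher, and 10 at an unadjusted p under 0.05.

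Of 18 complement genes, 0 passed, and 12 were higher and 0 lower at an unadjusted p under 0.05, and the median log2 fold change was 1.34. C3, the central complement component, held 22.3 to 36.9 CPM at 0 hr and 30.6, 177, 113 and 74.8 CPM at 72 hr. Of 18 genes of NF-kappaB factors and their feedback, 0 passed, and 11 were higher and 0 lower at an unadjusted p under 0.05, and the median was 1.06. Nfkbiz, an inducible nuclear partner of NF-kappaB, came closest, with 2.95 to 3.95 CPM at 0 hr, 4.23, 48.3, 43.7 and 119 CPM at 72 hr, and a log2 fold change of 3.35 ± 0.80 (edgeR adjusted p = 0.074). Of 25 genes of TLR4, TNF and IL-1 signaling, 0 passed, and 9 were higher and 0 lower at an unadjusted p under 0.05. Of 40 interferon-stimulated genes, 38 were higher at 6 hr, beside 22.4% of all genes. At 72 hr, in contrast, 0 of them passed, and 0 were higher and 1 lower at an unadjusted p under 0.05. Their median log2 fold change at 72 hr was -0.17. Without replicate 1 at 72 hr, 10 acute phase, 5 adhesion, 6 chemokine, 1 complement, 2 NF-kappaB and 0 interferon-stimulated genes were higher.

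**Figure D4:**
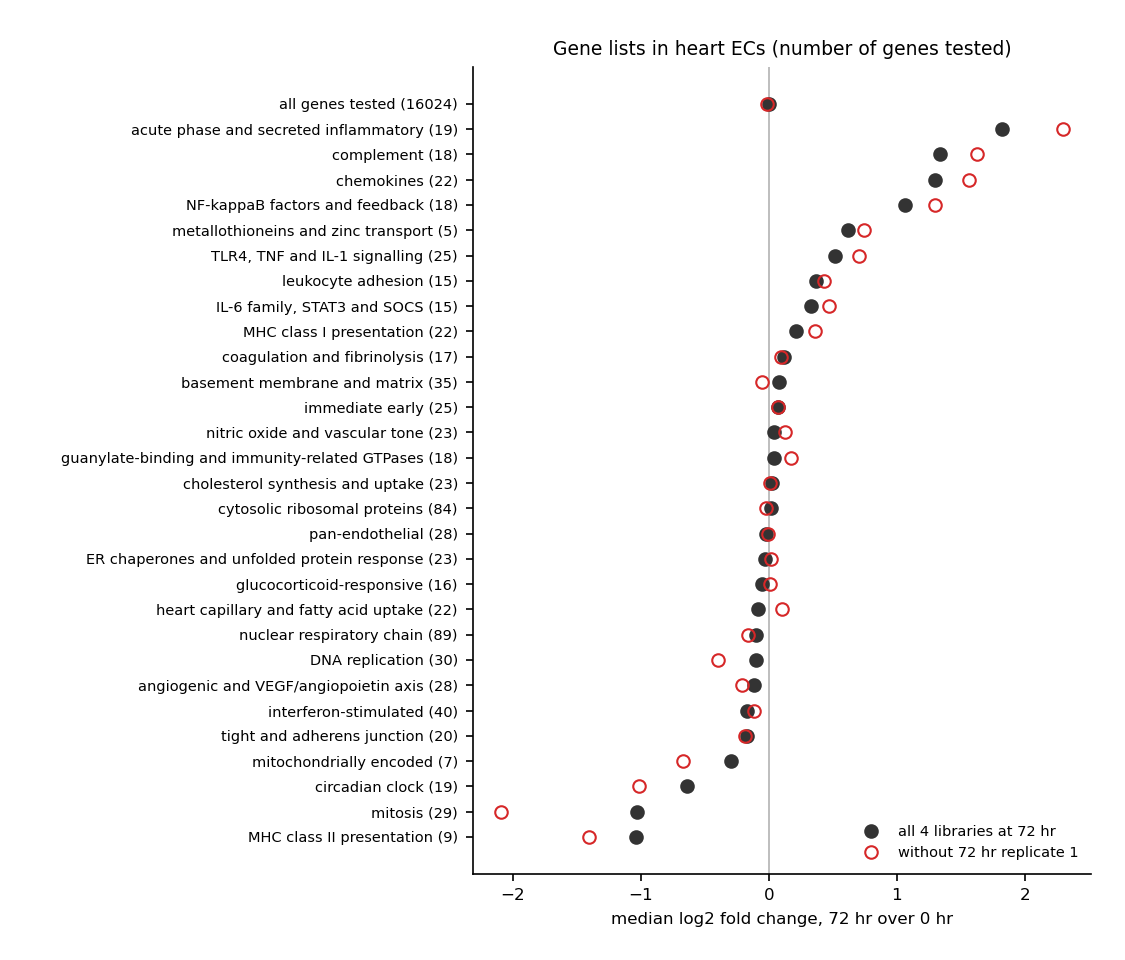
Median log2 fold change at 72 hr over 0 hr of each gene list (rows, with the number of genes tested), with all 4 libraries at 72 hr (filled) and without replicate 1 (open). Acute phase, complement, chemokine and NF-kappaB lists lie above 1, and mitosis and MHC class II lists below -1.

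No gene passed as lower at 72 hr, but some lists lay on that side, beside 1.57% of all genes lower at an unadjusted p under 0.05. All 29 mitosis genes tested had negative log2 fold changes, with a median of -1.03, of which 6 were lower at an unadjusted p under 0.05 and 0 passed. Mki67, a marker of cycling cells, held 94.8, 60.7, 32.5, 85.5 and 82.8 CPM at 0 hr and 88.5, 8.16, 13.6 and 11.3 CPM at 72 hr. Replicate 1 lay inside the 0 hr range, and the other 3 libraries below it. The same arrangement held for Cdc20, with 12.9 to 34.4 CPM at 0 hr and 26.2, 4.37, 6.22 and 5.59 CPM at 72 hr. Of 30 DNA replication genes 0 passed, also at an unadjusted p under 0.05, and the median was -0.10. Of 19 circadian clock genes, 0 passed, and 3 were higher and 8 lower at an unadjusted p under 0.05. Dbp, a clock output factor, held 112, 328, 406, 188 and 324 CPM at 0 hr and 213, 43.2, 37.2 and 21.0 CPM at 72 hr. Arntl, which encodes the clock activator BMAL1, held 2.01 to 5.94 CPM at 0 hr and 2.22, 31.2, 26.9 and 37.1 CPM at 72 hr. The hour of the day at collection is not in the labels, and its part was not tested. Of 9 genes of MHC class II presentation 0 passed, and 1 was higher and 3 lower at an unadjusted p under 0.05, with -1.03 as the median log2 fold change, and H2-Eb1 held 8.52 to 24.1 CPM at 0 hr and 11.1, 3.67, 1.02 and 0.960 CPM at 72 hr.

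In the fit without replicate 1 at 72 hr, the 47 lower genes (0.289% of all genes) included 5 of 29 mitosis, 5 of 19 circadian clock and 1 of 9 MHC class II genes. Of these, Dbp and Nr1d1 were also among the 10 lower genes without replicate 5 at 6 hr, as was Myo10, an unconventional myosin with 271 to 435 CPM at 0 hr and 233, 175, 143 and 137 CPM at 72 hr. The water channel gene Aqp1 was lower in the fit without replicate 5 at 6 hr and in that without both libraries, and not in that without replicate 1 at 72 hr alone, with 5355 to 9194 CPM at 0 hr and 4882, 2688, 2686 and 2033 CPM at 72 hr, and its groups did not overlap. Mgl2 and Retnla, known from resident macrophages, held 0.493 and 1.13 CPM in replicate 1 and at most 0.0367 CPM in the other 72 hr libraries, beside 0.840 to 1.72 CPM and 0.382 to 1.51 CPM at 0 hr. These genes were singled out after their values were seen.

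**Figure D5:**
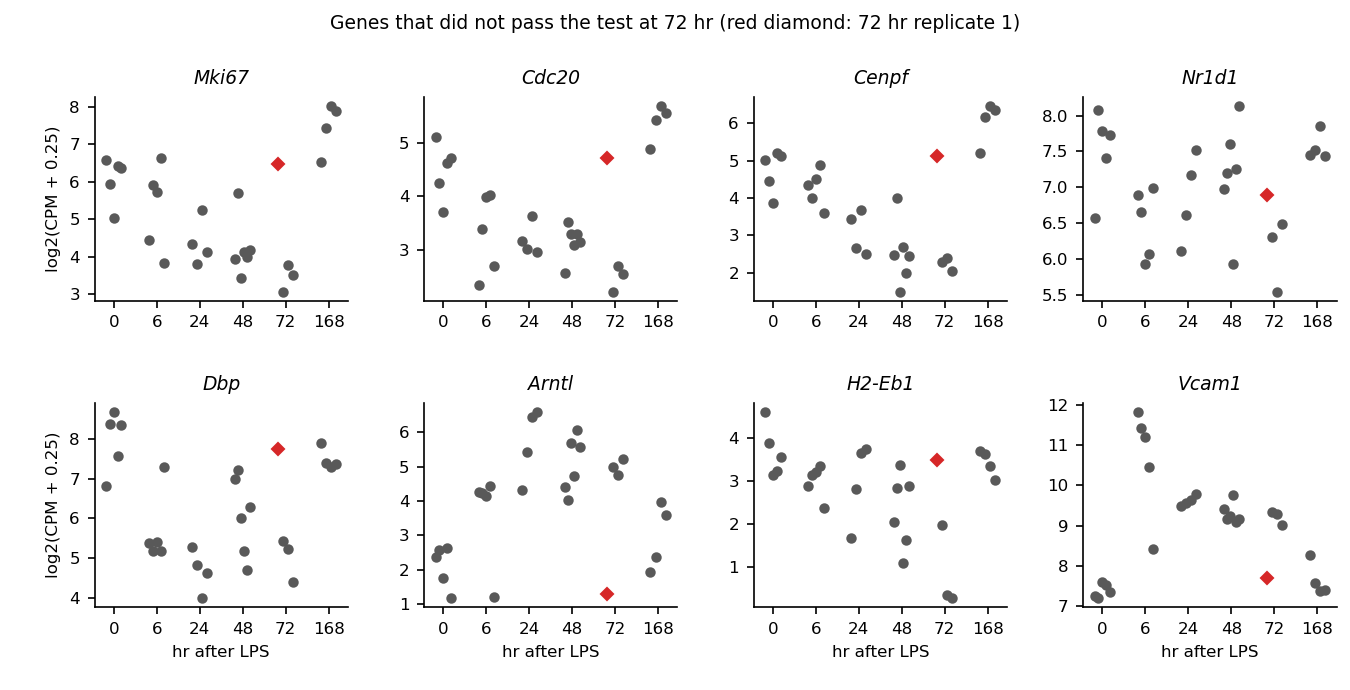
Log2(CPM + 0.25) in each heart library (points, replicate 1 of 72 hr as a red diamond) by hr after LPS of 8 genes that did not pass at 72 hr. Mki67, Cdc20, Cenpf and H2-Eb1 lie below the 0 hr libraries in replicates 2, 3 and 5 at 72 hr, and replicate 1 lies among the 0 hr libraries.

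The difference between 72 and 0 hr in the heart was then tested against the same difference in the brain and lung ECs of the series, as an interaction in a fit of 22007 genes. The kept lung libraries of 0 and 72 hr were poorer, with 12.5 to 56.2% of reads on genes. Those of brain had 53.4 to 68.7%, and those of the heart at least 60.5%. The part of this difference in the results was not tested. Of the 44 genes, 2 differed from brain, where 5 genes (0.0227%) were higher and 65 (0.295%) lower in the heart. The log2 difference of mean log2 CPM between 72 and 0 hr for Susd2 was 3.23 in the heart and -0.41 in brain, and the fitted difference was 4.21 ± 0.85 (edgeR adjusted p = 0.0043), and Gal differed by 7.35 ± 1.55 (edgeR adjusted p = 0.0063). Against lung, where 24 genes (0.109%) were higher and 10 (0.0454%) lower, 1 of the 44 differed. This was Itih4, at 3.21 in the heart and -0.91 in lung, with a fitted difference of 5.33 ± 1.09 (edgeR adjusted p = 0.0146). The leading acute phase and adhesion genes were not called different, with differences for Lcn2 of -0.32 ± 1.15 from brain and 2.45 ± 1.19 from lung, and for Selp of -2.62 ± 1.32 and 2.49 ± 1.33, which does not show that the tissues were alike. The genes that differed most clearly from brain were those of cell division. For Mki67 the mean log2 CPM differed between 72 and 0 hr by 4.62 in brain and by -1.86 in the heart, with a fitted difference of -6.47 ± 1.08 (edgeR adjusted p = 0.000853). Cdk1, Top2a, Ccna2 and Cdc20 also differed, by -6.52, -6.20, -4.97 and -3.84, and Cdc20 differed from lung as well, by -3.47 ± 0.77.

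Motifs were searched in the 250 bases before the start of the 37 of the 44 genes that have a RefSeq promoter (GRCm38.p6), on both strands, and in all 32851 promoters. The C/EBP letters TTGCNNAA were in 8 of 37, among them Saa3, Lcn2, Cxcl13, S100a9 and Ltf, and in 9.56% of all promoters. The NF-kappaB letters (GGG and TTCC with any 3 bases between) were in 5, including Serpina3n and Marco, and in 4.65% of all promoters. The STAT letters TTCNNNGAA were in 5, including Itih4 and Sele (7.02% of all), the AP-1 letters TGANTCA in 3 (6.75%), and the ISRE letters (GAAA at both ends of any 2 bases) in 2, Saa3 and Gzma (2.98%). A gene of the 37 was counted if any of its promoters matched, whereas the shares of all are per single promoter, so these are unlike measures. The matches describe the sequences and name no factor at work.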

How the data were processed

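Per the submitters' notes, STAR (2.4.2) and HTSeq (0.6.1) gave gene counts on mm10, and the authors deposited raw counts for each of 217 sequencing runs. The annotation release and strand setting are not given in the sources used here. Runs were summed to 98 libraries. Not-unique alignments, 30.1 to 35.3% of reads in the libraries compared, were in no gene count, so close paralogs (Saa, Serpina3, Csf2rb, Fpr and Ifitm genes) are uncertain. The counts of 28 kept heart libraries from 0, 6, 24, 48, 72 and 168 hr were fitted in edgeR (4.0.16, R 4.3.3) with TMM scaling, filterByExpr, quasi-likelihood F tests, group means and the library series (1 to 4, read from the names of the deposited counts, not labeled as a batch), leaving 20 residual degrees of freedom. SE was the log2 fold change over the square root of F, and plots use log2(CPM + 0.25). Tissues were compared by an interaction over all kept libraries. The study's methods used limma-voom with ComBat, and limma (3.58.1) voom and DESeq2 (1.42.0) were alternatives. On simulated data for 72 against 0 hr with 15638 genes tested, 142 of 200 changed genes were recovered with 9 false calls, and 25 of 80 changed 2-fold. The simulation used a dispersion of 0.1 for all genes, no effect of library series and no library that stood apart. Its rates therefore do not carry over to the comparison made here. Coordinates are from GENCODE M21 (GRCm38). Named genes are the genes called at 72 hr, those with the largest changes, members of the lists and the genes differing most between tissues, plus genes named after their values were seen. The genes, lists and tests were chosen with earlier results of these data known.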

Additional observations from a re-analysis of the deposited data

Results flagged for a closer look

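In all, 217 groups of 4 or 5 libraries were tested for a library far from the rest. Chance gives about 1 in 20 in independent groups. These groups share libraries, and many genes were chosen on their 72 hr values, so that rate does not carry over. By the gap to the nearest library over the range, 27 groups stood out. In 16 of them replicate 1 was the lowest 72 hr library, with ratios of 0.870 for Saa3, 0.908 for Itih4, 0.887 for Lama5, 0.852 for Hif3a, 0.885 for Arntl, 0.952 for Il1rn, 0.880 for Ankrd2 and 0.854 for Csf2rb. The other 8 were 0.853 for Itih3, 0.968 for Csf2rb2, 0.872 for Susd2, 0.907 for Clec4d, 0.888 for Ankrd1, 0.969 for Icosl, 0.866 for Adam8 and 0.901 for Pirt. In 3 groups it was the highest, with 0.893 for H2afx, 0.882 for Cenpf and 0.872 for Retnla. At 0 hr, replicate 2 was lowest for Mt2 (0.885) and highest for Scgb1a1 (0.843), and replicate 4 was highest for Icosl (0.725). Replicate 5 at 0 hr was the only kept 0 hr library above 0 for Arg1, Treml4, Cd300lf, Gal and Xist, each with a ratio of 1. For Arg1, Treml4, Cd300lf and Gal this ratio rests on 1 count each, whereas Xist had 1053.

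The log2 response at 72 hr differed between heart and brain, by the interaction test in edgeR, by -3.84 for Cdc20, -6.47 for Mki67, -6.52 for Cdk1, -6.20 for Top2a and -4.97 for Ccna2. Between heart and lung it differed by -3.47 for Cdc20, 2.95 for Mylip, 2.63 for Enpp2, 2.98 for Fgf1 and 2.42 for Itm2b. In the left-out libraries, 5 of the 44 genes had a higher CPM in replicate 4 at 72 hr than in replicate 6 at 0 hr and 2 a lower one, and 37 had 0 counts in both. Of all genes tested, 38.3% were higher in that 72 hr library.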

How the results depend on the processing

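Between 72 and 0 hr, where 44 genes were higher and 0 lower, the counts were 166 and 11 with DESeq2, 295 and 30 without the low-count filter, and 0 and 0 with limma-voom, with a term for Y-linked reads, or with only 0 and 72 hr libraries and the library series. They were 44 and 1 with RLE scaling, 57 and 2 with all libraries kept, 45 and 1 without the library series, 64 and 6 with only 0 and 72 hr libraries and no series, 92 and 15 without replicate 1 at 72 hr with the Y-linked term, and 368 and 104 without replicate 1 at 72 hr and replicate 5 at 6 hr. Leaving out single libraries gave 0 to 201 higher and 0 to 47 lower. Same-numbered libraries correlated at -0.11, 0.003, 0.04 and -0.19 in their deviations, so the numbers do not pair the samples, and a replicate block gave 1 higher gene (Arg1) and 0 lower. Between 72 and 6 hr, leaving out single libraries gave 1918 to 4835 higher and 2446 to 4227 lower.

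Between 168 and 72 hr, higher and lower genes numbered 191 and 145 with DESeq2, 19 and 34 with all libraries, 117 and 12 with limma-voom, 225 and 266 without the filter, 2 and 5 with the Y-linked term, and 0 to 207 and 0 to 234 leaving out single libraries. Against brain they numbered 45 and 143 with DESeq2, 13 and 68 with all libraries, 1 and 56 with limma-voom, 3 and 49 without the series, 55 and 142 without the filter, and 3 to 18 and 36 to 110 leaving out single libraries. Against lung they numbered 161 and 153, 105 and 311, 4 and 12, 8 and 3, and 180 and 150 in the same order, and 7 to 45 and 2 to 37. Reversals were Scgb1a1 (-1.14), at 1.64 with limma-voom, 1.73 with the Y-linked term, 1.60 with that term without replicate 1 at 72 hr and -1.74 to 4.00 leaving out single libraries (4.00 without replicate 2 at 0 hr), Xist (1.41), at -0.66 and -0.39 in those Y-linked fits, and Itm2b (0.11), at -0.043 without replicate 2 at 72 hr and up to 0.21 without another library. The causes were not tested. The 44 genes kept positive log2 fold changes in every setting in which they were tested. As the 44 were chosen as higher in these same libraries, a kept sign was favored in advance and tests nothing. The alternatives with Y-linked terms and without replicate 5 at 6 hr were chosen after seeing the data.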
